A study of Saccharomyces cerevisiae with 4 samples.

Results

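Transcripts of 9 amino acid permeases and of the amino acid sensor SSY1 were compared between D10 Small, a translocant strain of Saccharomyces cerevisiae, and WT San I, its parent. The 10 genes were taken by systematic name (AGP1, YCL025C; BAP2, YBR068C; BAP3, YDR046C; TAT1, YBR069C; TAT2, YOL020W; GNP1, YDR508C; MUP1, YGR055W; DIP5, YPL265W; HIP1, YGR191W; SSY1, YDR160W) from 6256 gene probes on the array, and all 10 were found, with 7 spots each per array. Each of 4 two-colour arrays carried the Cy3-labelled RNA of 1 of 4 biological replicates of D10 Small, which was grown in YPD with 200 mkg/ml kanamycin. The other channel of every array carried Cy5-labelled RNA of 1 pool of WT San I, grown in YPD with no kanamycin named. Both strains were harvested at an OD595 of about 0.4 to 0.5. Strain and drug therefore changed together and cannot be told apart. The dyes were never swapped, so a dye effect of a single probe cannot be told apart from a strain difference. The labels do not say whether the D10 Small cultures descend from 1 clone or how many cultures entered the pool. In bulk RNA, fewer cells expressing a gene and less of its RNA per cell cannot be told apart either.

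Yeast takes up amino acids through a family of plasma membrane permeases with overlapping substrates. Ssy1 belongs to the same family by sequence but works as a receptor: with Ptr3 and the protease Ssy5 it forms the SPS sensor, which detects amino acids outside the cell. The activated protease cleaves the transcription factors Stp1 and Stp2, which then enter the nucleus and, with Dal81, induce permease genes. AGP1, BAP2, BAP3, TAT1, TAT2, GNP1, MUP1 and DIP5 are known targets of this pathway, whereas the histidine permease HIP1 is not counted among them.

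The permease genes went in opposite directions in D10 Small. TAT2, BAP3, GNP1, BAP2 and SSY1 were higher, and AGP1, MUP1, HIP1, TAT1 and DIP5 were lower, by limma at an adjusted p under 0.05. Thus 5 of 10 genes passed as higher, where 43.2% of all 5794 genes tested did, and 5 as lower, where 39.4% did. Since 82.6% of all genes passed in either direction, the counts of the 10 genes are close to those of the genome. Of the 8 known SPS targets among the 10 genes, 4 were higher and 4 lower. The median log2 ratio of D10 Small over the pool was 0.09 for the 10 genes and 0.02 for all tested genes. The sign was the same on all 4 arrays for 9 of the 10 genes, DIP5 being the exception, and for 87.1% of all tested genes. At least 2-fold differences were limited to TAT2 among the higher genes (6.23% of all tested genes) and AGP1 among the lower ones (3.05%), with BAP3 just short of that size. Against a minimum fold of 1.2, limma's treat kept 4 genes as higher (24.6% of all tested genes) and 3 as lower (19.9%). SSY1, TAT1 and DIP5 did not pass there, with adjusted p of 0.0729, 0.257 and 1.

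**Figure D1:**
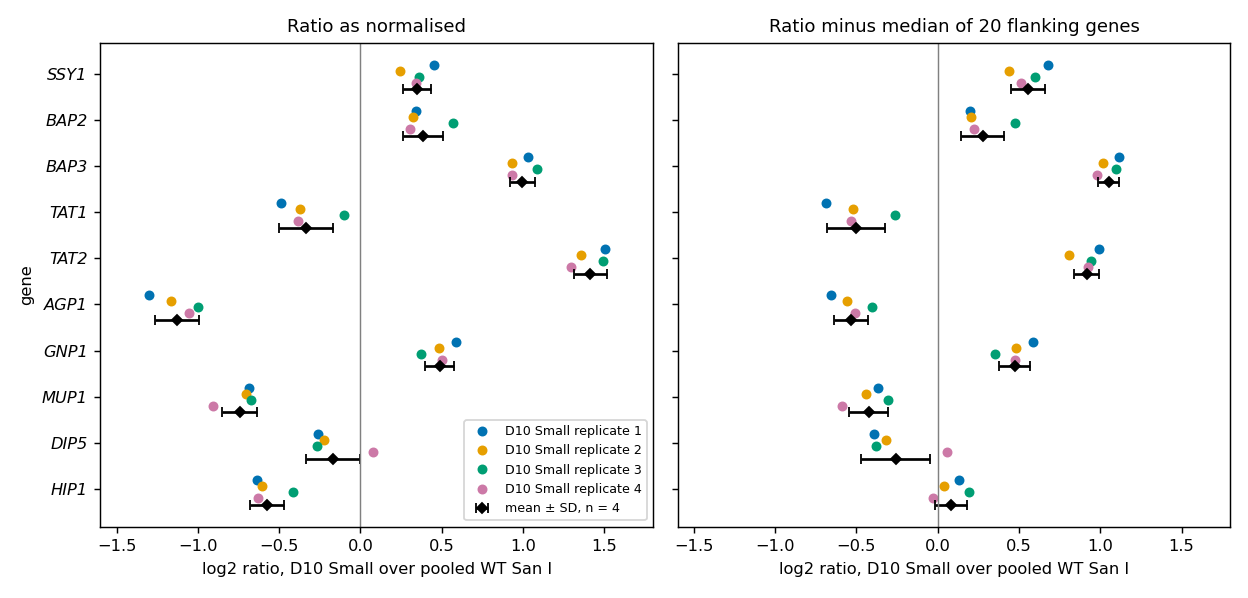
Log2 ratio of D10 Small over pooled WT San I for the 10 genes, with 1 coloured point per array and a black diamond with a bar for the mean ± SD (n = 4). The left panel holds the normalised ratio and the right panel the same ratio after the median of 20 flanking genes was subtracted; HIP1 lies near 0 only on the right, while DIP5 has 1 positive array in each.

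All 10 probes were above background in both channels on all 4 arrays. Raw spot intensities had array medians of 304 to 444 for D10 Small and of 120.4 to 261 for the pool. SSY1 was the dimmest of the 10 genes, with raw means of 164, 111, 84 and 85 in the pool, below the pool median of each array. The log2 ratios of the 7 spots of a probe had an SD of 0.034 to 0.309 within an array. Haploid-specific genes, a check of the cell type, passed as higher in D10 Small for 10 of 10 members, beside 43.2% of all tested genes. For 5 of the 10 the pool was above background on at most 2 arrays, and for 4 on none, so these entered the test through D10 Small and their count is a description only. Their summed normalised intensity was 4257 to 4601 in D10 Small and 732 to 1029 in the pool. Of 12 stationary-phase and stress genes, 7 were higher and 5 lower (43.2% and 39.4% of all tested genes). Their differences were large in both directions. Of the 12, 6 were at least 2-fold higher and 4 at least 2-fold lower, beside 6.23% and 3.05% of all tested genes. Their summed normalised intensity, in which bright genes weigh most, was 19314 to 20983 in D10 Small and 6404 to 6490 in the pool. The part of cell type or growth state in the permease differences was not tested.

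The aromatic amino acid permeases moved apart. TAT2, the high-affinity permease for tryptophan and tyrosine, had normalised intensities of 1305, 1232, 1298 and 1222 in D10 Small, against 460, 481, 461 and 498 in the pool on the same arrays. The channels were far apart on every array. Here and below, intensities are normalised and the 4 pool values are repeat readings of 1 pool. A gap between channels therefore does not measure spread between WT San I cultures. The share of all tested genes with such a gap was not counted. The log2 ratio was 1.41 ± 0.10 (SD, n = 4), a 2.66-fold difference with an adjusted p of 7.81e-08 in limma, and 4.16% of all tested genes had a ratio at least as far from 0. TAT1, which carries tyrosine with high and tryptophan with low affinity, read 380, 422, 455 and 393 in D10 Small, against 533, 547, 488 and 513 in the pool. Its channels did not overlap, but the gap was narrow on replicate 3, where the ratio was -0.10, against -0.49, -0.37 and -0.38 on replicates 1, 2 and 4. The mean was -0.34 ± 0.17 (SD, n = 4) with an adjusted p of 0.000995 in limma, and -0.12 with median centring of each array in place of loess, which did not pass. The ratio of TAT2 exceeded that of TAT1 by 1.75 ± 0.17 on the log2 scale, between 1.60 and 1.99 on the 4 arrays.

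The branched-chain permeases were both higher in D10 Small. BAP3, a permease for leucine, isoleucine, valine and several other amino acids, had intensities of 3758, 3628, 3835 and 3400 in D10 Small and 1838, 1903, 1809 and 1785 in the pool. These values sit close together within each channel and far apart between them. The ratio was 0.99 ± 0.08 (SD, n = 4), a 1.99-fold difference with an adjusted p of 1.75e-07 in limma. BAP2, its close relative with high affinity for leucine, isoleucine and valine, read 2653, 2578, 2765 and 2768 in D10 Small and 2096, 2058, 1865 and 2244 in the pool. The channels did not overlap, and replicate 3, where the pool was dimmest, gave the highest ratio. BAP2 had a ratio of 0.38 ± 0.12 (SD, n = 4) with an adjusted p of 0.000134 in limma. BAP3 exceeded BAP2 by 0.61 ± 0.07 on the log2 scale, between 0.52 and 0.69 on the 4 arrays. With median centring of each array in place of loess, BAP3 had 0.65 and BAP2 0.082, which no longer passed.

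The broad-specificity pair AGP1 and GNP1 showed opposite changes. AGP1, a low-affinity permease for asparagine, glutamine and many other amino acids, had intensities of 455, 495, 550 and 505 in D10 Small, against 1122, 1112, 1097 and 1049 in the pool. After normalisation, every D10 Small value was far below every reading of the pool. Raw means, before the channels were put on a common scale, overlapped, with 531 to 704 in D10 Small and 561 to 1285 in the pool. The ratio was -1.13 ± 0.14 (SD, n = 4), which is 2.19-fold lower with an adjusted p of 4.39e-07 in limma. GNP1, its close paralog with high affinity for glutamine, read 2510, 2568, 2364 and 2611 in D10 Small and 1671, 1833, 1823 and 1846 in the pool. The channels did not overlap, and the ratio was positive on each array, from 0.37 on replicate 3 to 0.59 on replicate 1. GNP1 had a mean ratio of 0.49 ± 0.09 (SD, n = 4) with an adjusted p of 9.98e-06 in limma, and 0.23 with median centring, which also passed. The ratio of GNP1 exceeded that of AGP1 by 1.62 ± 0.22 on the log2 scale, between 1.37 and 1.89 on the 4 arrays.

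The permeases for methionine and histidine were lower in D10 Small than in the pool. Both genes lie on VII right, where most tested genes were lower, and HIP1 did not differ detectably from its neighbours, as given below. MUP1, the high-affinity methionine permease, read 1591, 1575, 1692 and 1416 in D10 Small, against 2561, 2565, 2700 and 2652 in the pool. The channels did not overlap, and replicate 4 was the lowest. The ratio was -0.74 ± 0.11 (SD, n = 4) with an adjusted p of 1.87e-06 in limma. HIP1, the high-affinity histidine permease, had intensities of 574, 598, 629 and 534 in D10 Small and 892, 911, 839 and 827 in the pool. Its ratio was -0.57 ± 0.10 (SD, n = 4) with an adjusted p of 6.97e-06 in limma, and the channels stayed apart on all arrays.

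DIP5, the permease for glutamate and aspartate, was the least clear of the 10. It read 355, 375, 340 and 445 in D10 Small and 425, 437, 409 and 421 in the pool, so the channels overlapped through replicate 4. The ratios were -0.26, -0.22 and -0.27 on replicates 1, 2 and 3, and 0.080 on replicate 4. The mean was -0.17 ± 0.17 (SD, n = 4) with an adjusted p of 0.0314 in limma, and 69.02% of all tested genes had a ratio at least as far from 0. Without replicate 1, 2 or 3 it did not pass, with adjusted p of 0.0860, 0.112 and 0.126, while without replicate 4 the mean was -0.25. With median centring DIP5 had the opposite sign, with 0.064.

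The sensor gene SSY1 was modestly higher. Its intensities were 269, 258, 240 and 278 in D10 Small, against 197, 219, 187 and 220 in the pool. The channels did not overlap. The ratios were 0.45, 0.24, 0.36 and 0.34, with a mean of 0.35 ± 0.09 (SD, n = 4), a 1.27-fold difference with an adjusted p of 7.29e-05 in limma. With median centring the mean was 0.58, and in the authors' deposited table it was 0.47.

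**Figure D2:**
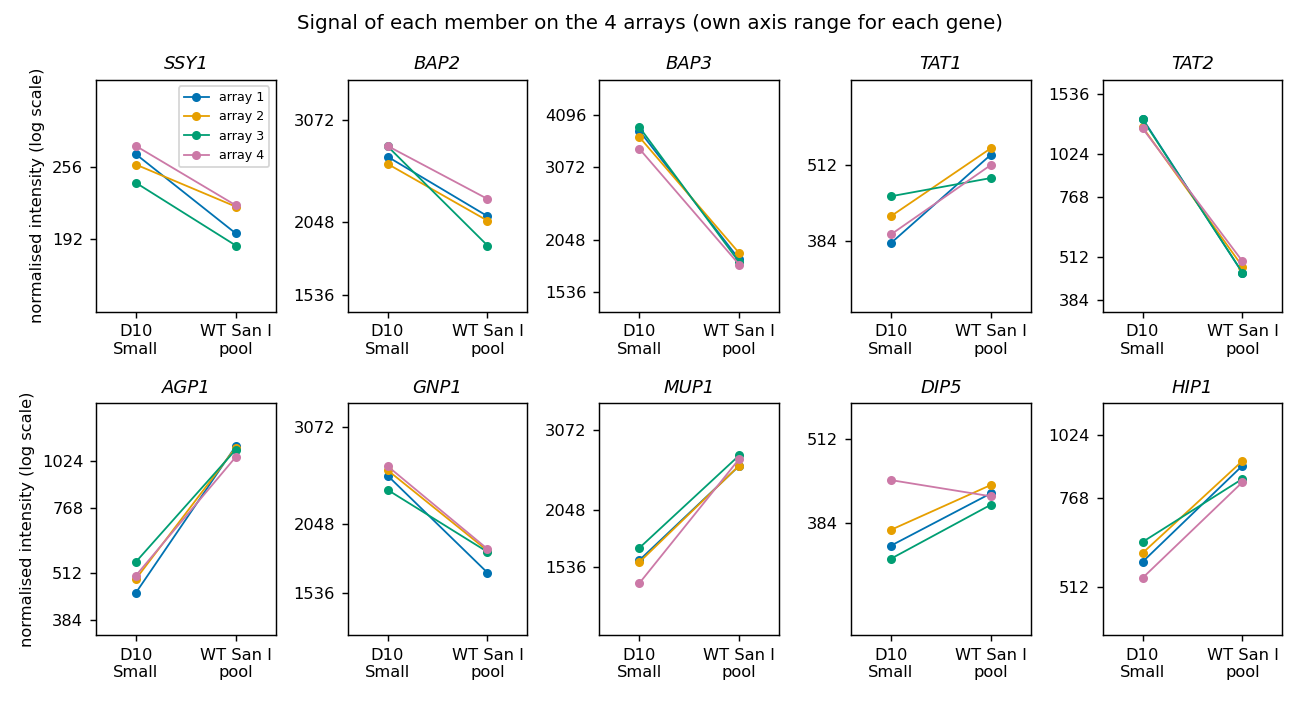
Normalised intensity of each gene (log scale, arbitrary units, own range per panel) in D10 Small on the left and the WT San I pool on the right, with a line joining the channels of each of the 4 arrays. Lines descend to the right for SSY1, BAP2, BAP3, TAT2 and GNP1 and climb for TAT1, AGP1, MUP1 and HIP1, whereas those of DIP5 climb on 3 arrays and descend on array 4.

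Differences between members were computed for 4 pairs, GNP1 and AGP1, BAP3 and BAP2, BAP2 and TAT1, and TAT2 and TAT1, in which the first exceeded the second on 4 of 4 arrays. With 4 arrays, an exact two-sided sign-flip permutation test cannot go below p = 0.125, the value reached by every pair both before and after Benjamini-Hochberg adjustment over the 4 pairs. AGP1 and GNP1, and likewise BAP2 and BAP3, are related in sequence, and how far their probes share signal was not tested. The differences of the pairs were not taken relative to flanking genes. Against those, GNP1 stood at 0.47 and AGP1 at -0.53, and TAT2 at 0.92 and TAT1 at -0.50.

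Of the 10 genes, 4 lie on the chromosome arms III left, VII right and XV left, where most but not all tested genes were shifted in 1 direction. On III left 81.5% of tested genes were lower and 7.41% higher, and on VII right 76.5% were lower and 15.1% higher. On XV left 69.6% were higher and 18.4% lower. Over all tested genes 43.2% were higher and 39.4% lower. The median ratio of tested genes was -0.81 on III left, which carries AGP1, -0.49 on VII right, which carries MUP1 and HIP1, and 0.45 on XV left, which carries TAT2. It was 0.22 on II right, with BAP2 and TAT1, -0.10 on IV right, with BAP3, GNP1 and SSY1, and 0.14 on XVI left, with DIP5. Each gene was therefore also set against the median of its 20 nearest tested neighbours, 10 on each side, array by array, and limma was refitted over 5784 genes. Against their neighbours 5 members were higher and 4 lower, where 40.7% of all genes were higher and 40.7% lower.

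HIP1 was the member that did not differ detectably from its neighbours. Its 20 flanking genes had a median of -0.66 ± 0.08 (SD over 4 arrays), which left HIP1 at 0.084 ± 0.10 with a 95% interval of -0.016 to 0.18 and an adjusted p of 0.105 in limma. The call rested on the processing: HIP1 was higher than its neighbours by 0.29 without background correction, with an adjusted p of 8.77e-05, and by 0.25 against 5 neighbours on each side. Relative to the whole arm it had -0.078.

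The differences of AGP1, MUP1 and TAT2 were smaller relative to their neighbours and still passed. AGP1 was lower than its flanking genes by a log2 difference of -0.53 ± 0.10 (SD, n = 4; limma's adjusted p = 2.47e-06), as those genes had a median of -0.60. This difference lay between -0.57 and -0.26 over the alternatives run, the smallest being with background subtracted, and passed in each. Of the 20, 5 had ratios at or below that of AGP1, among them LEU2 with -3.20, which lies 3 tested genes away and was picked after its value was seen. MUP1 stood at -0.43 ± 0.12 (SD, n = 4) from its neighbours with an adjusted p of 2.13e-05 in limma, and between -0.63 and -0.080 over the alternatives. The value nearest 0 came from the scanner's net ratio and did not pass. TAT2 was higher than its neighbours by 0.92 ± 0.08 (SD, n = 4) with an adjusted p of 2.93e-08 in limma. Among its 20 flanking genes, 2 reached its ratio. These flanking genes were uneven, with ratios of 0.32 to 2.02 from GAS5 to TOS7 and of -0.79 to 0.56 from TLG2 to RCL1. That split was picked after the values were seen. The flank median of 0.50 mixes both stretches, so 0.92 overstates the difference of TAT2 from the GAS5 to TOS7 stretch. A difference from that stretch alone was not tested.

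BAP2 and TAT1 are next to each other on II right, with 0 protein genes between them in the R64 gene table, and had opposite signs. BAP2 exceeded TAT1 by 0.72 ± 0.07 on the log2 scale, between 0.67 and 0.83 on the 4 arrays. Both ratios were highest on replicate 3. TAT1 was lower than its neighbours by a difference of -0.50 ± 0.18 (SD, n = 4; limma's adjusted p = 3.13e-05), or -0.30 with median centring, and 2 of 20 flanking genes were at or below it. BAP2 was higher by 0.28 ± 0.13 (SD, n = 4; limma's adjusted p = 0.000632), although this was 0.086 against 5 neighbours on each side and -0.086 with median centring, and neither passed. The same stretch holds the heat shock gene HSP26, 3 tested genes beyond TAT1, which had a ratio of 3.82 and was picked after its value was seen.

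The 3 members on IV right were higher than their surroundings. BAP3 exceeded its neighbours by 1.05 ± 0.06 (SD, n = 4) with an adjusted p of 8.70e-09 in limma, or by 0.67 with median centring, and 1 of 20 flanking genes reached its ratio. SSY1 exceeded its neighbours by 0.56 ± 0.10 (SD, n = 4) with an adjusted p of 1.76e-06 in limma. Of the 20 genes around SSY1, 18 were lower in D10 Small and 0 were higher, so SSY1 was the only gene with a positive ratio in that window. GNP1 exceeded its neighbours by 0.47 ± 0.10 (SD, n = 4) with an adjusted p of 4.37e-06 in limma, but by 0.020 with median centring, which did not pass. DIP5, on XVI left, stood at -0.26 ± 0.21 (SD, n = 4) from its neighbours with an adjusted p of 0.00633 in limma, and again with a positive value of 0.058 on replicate 4.

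**Figure D3:**
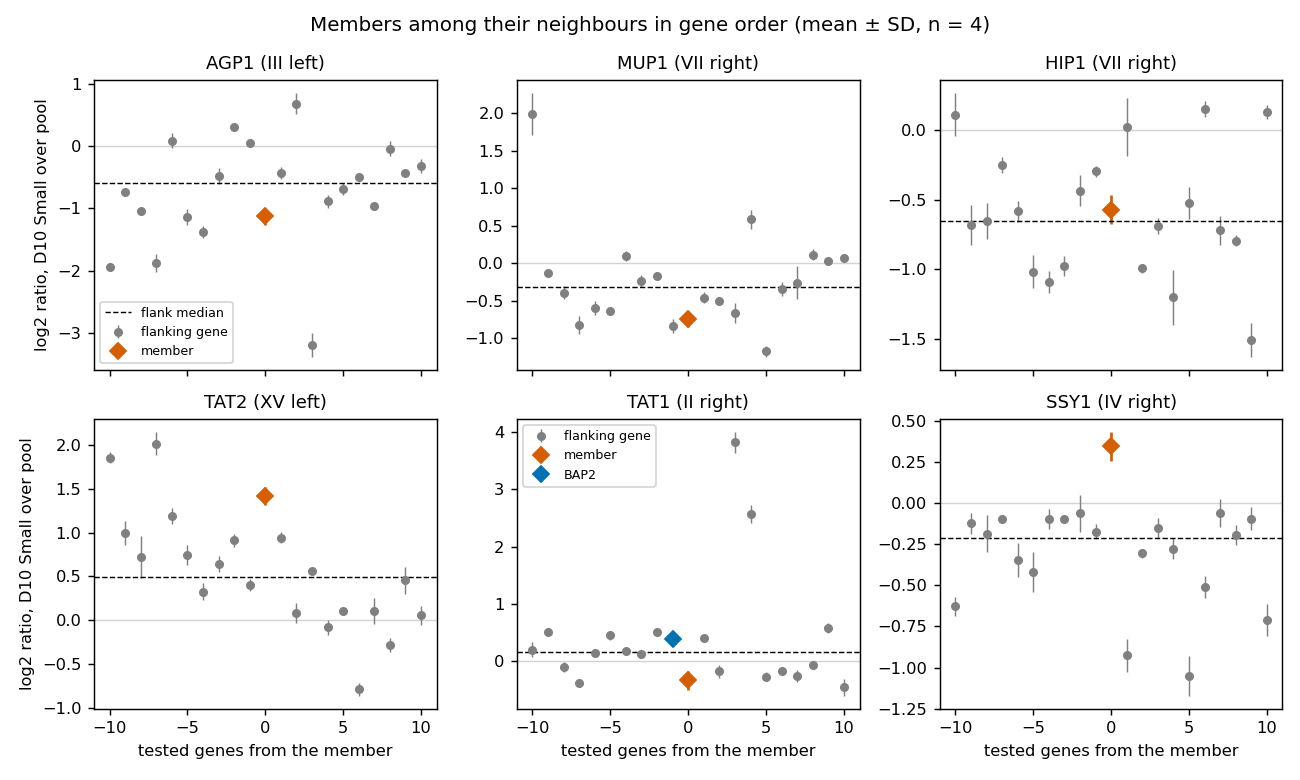
Log2 ratio of D10 Small over pool (mean ± SD, n = 4) for 6 members and the 10 tested genes on each side in gene order, with the flank median as a dashed line. TAT2, AGP1, TAT1 and SSY1 lie away from the dashed line, HIP1 lies beside it at -0.57 against -0.66, and BAP2 is drawn in blue in the TAT1 panel.

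Genes of the SPS pathway other than SSY1 had 6 of 12 members higher, 4 lower and 2 not passing, and a median log2 ratio of 0.09. Over the whole array 43.2% of tested genes passed as higher and 39.4% as lower. PTR3, the scaffold that relays the signal of Ssy1, had 0.49, 0.51, 0.66 and 0.45 on the 4 arrays, a mean of 0.53 ± 0.09 (SD, n = 4) with an adjusted p of 7.60e-06 in limma. The protease gene SSY5 went the other way, with -0.22 ± 0.06 (SD, n = 4; limma's adjusted p = 0.000429), but its size rested on the processing, between -0.58 with the scanner's net ratio and -0.071 with median centring. It did not pass with median centring or against the 1.2-fold minimum. Among the transcription factors, STP2 was higher with 0.50 ± 0.04 and their partner DAL81 with 0.58 ± 0.09. STP1 had -0.14 ± 0.12 (SD, n = 4), which passed (limma's adjusted p = 0.0246), did not pass without replicate 1 or 2, and was 0.097 with median centring. ASI3, part of the inner nuclear membrane complex that keeps unprocessed Stp1 and Stp2 from acting, was higher with 0.56 ± 0.10. YCK2, a casein kinase I that acts in SPS signalling, was lower with -0.59 ± 0.06, and with -0.39 under median centring.

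Of 15 other amino acid and peptide permeases, 11 passed as higher and 2 as lower, beside 43.2% and 39.4% of all tested genes, with a median of 0.34. Against the 1.2-fold minimum 6 were higher and 2 lower, beside 24.6% and 19.9% of all tested genes. For 3 of the 15 the pool was above background on at most 2 arrays, so these entered through D10 Small. With only genes measured in both channels on all arrays, which leaves fewer than 15 in the list, 8 were higher and 2 lower. Of all 5354 genes tested in that way, 2279 were higher and 2240 lower. With median centring 9 of the 15 were higher and 3 lower, beside 2518 and 2110 of all 5794 tested genes. YCT1, a cysteine transporter, had 0.82 ± 0.07, and between 0.79 and 1.27 over the alternatives. GAP1, the general amino acid permease that is repressed by good nitrogen sources, had 0.80, 0.61, 0.58 and 0.63 on the 4 arrays, averaging 0.66 ± 0.10 (limma's adjusted p = 2.73e-06). Over the alternatives GAP1 had between 0.61 and 1.56, and it was above YCT1 with each other background correction run, in the authors' deposited table and by the scanner's net ratio. PTR2, the di- and tripeptide transporter and itself an SPS target, had 0.63 ± 0.05, and the arginine permease CAN1 had 0.51 ± 0.13. Relative to flanking genes the median of the list was 0.035, with GAP1 at 0.49 ± 0.10 and PTR2 at 0.39 ± 0.01.

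Vacuolar amino acid transporters showed 7 of 12 tested genes higher and 3 lower, beside 43.2% and 39.4% of all tested genes, at a median of 0.20, and VBA3 was not above background in either channel. AVT7, of the vacuolar AVT transporter family, had 0.89 ± 0.09 and VBA2, a vacuolar permease for basic amino acids, 0.81 ± 0.13. The value of VBA2 lay between 0.75 and 2.36 over the alternatives, the highest with the scanner's net ratio. ERS1, a relative of the human cystine transporter of lysosomes, was lower with -0.97 ± 0.19, and between -2.64 with the scanner's net ratio and -0.89 without replicate 1. It lies on III right, whose tested genes had a median of -0.31, and stood at -0.58 ± 0.14 from its neighbours.

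Genes for the delivery and ubiquitination of permeases numbered 13, of which 8 were higher and 5 lower, beside 43.2% and 39.4% of all tested genes, at a median of 0.10. Against the 1.2-fold minimum 3 were higher and 1 lower, beside 24.6% and 19.9% of all tested genes. CSR2, an arrestin-like adaptor of the ubiquitin ligase Rsp5, had ratios of 1.61, 1.43, 1.37 and 1.15 on the 4 arrays, a 2.62-fold difference with an adjusted p of 5.33e-07 in limma, and its mean lay between 1.32 and 2.85 over the alternatives. NPR1, a kinase that stabilises several permeases at the plasma membrane, was higher with 0.76 ± 0.08. EAR1, another Rsp5 adaptor, was lower with -0.50 ± 0.08, between -1.11 and -0.39 over the alternatives. SHR3, the chaperone that lets permeases leave the endoplasmic reticulum, had -0.15 ± 0.10 (SD, n = 4; limma's adjusted p = 0.0116), and 0.049 with median centring, which did not pass.

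Transcription regulators of permease genes included 9 higher and 4 lower among 16 tested, beside 43.2% and 39.4% of all tested genes, at a median of 0.22, and DAL80 was not above background in either channel. GAT1 and GLN3, GATA factors that activate genes for poor nitrogen sources, were higher with 0.92 ± 0.17 and 0.48 ± 0.14, GLN3 reaching 0.75 with background subtracted. GCN4, the activator of amino acid synthesis genes, had 0.40, 0.68, 0.78 and 0.84 on the 4 arrays, averaging 0.68 ± 0.20 (limma's adjusted p = 3.68e-05). MET28, a cofactor of the sulfur gene activator Met4, was higher with 0.87 ± 0.18, between 0.79 and 1.91 over the alternatives. For CSR2, GAP1, VBA2, ERS1, MET28 and EAR1 the values farthest from 0 came from the scanner's net ratio. TUP1, a general corepressor, had -1.34, -1.26, -1.17 and -1.07 on the 4 arrays and was 2.31-fold lower, with an adjusted p of 1.86e-07 in limma. It lies on III right and stood at -0.73 ± 0.07 from its neighbours.

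**Figure D4:**
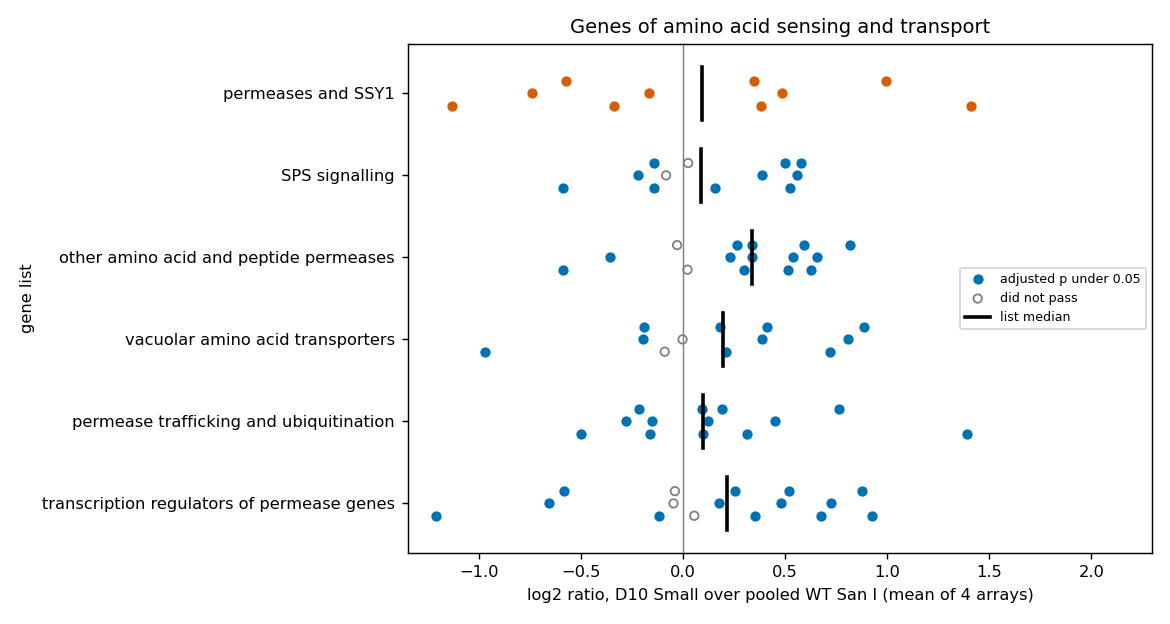
Mean log2 ratio of D10 Small over pool for each tested gene of 6 groups, filled where limma's adjusted p was under 0.05 and open where it was not, with a bar at each group's median. The permeases and SSY1 spread from -1.13 to 1.41 around a median of 0.09, while the other amino acid and peptide permeases have a median of 0.34, or 0.035 relative to flanking genes.

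The authors' deposited table gave the same order of extremes for the 10 genes. In it TAT2 had a mean log2 ratio of 1.5, BAP3 of 1.02, AGP1 of -1.24 and MUP1 of -0.73. Its values for the 10 genes kept the direction reported here, and all 10 passed in it. Only median centring, among the settings drawn, moved a mean across 0.

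**Figure D5:**
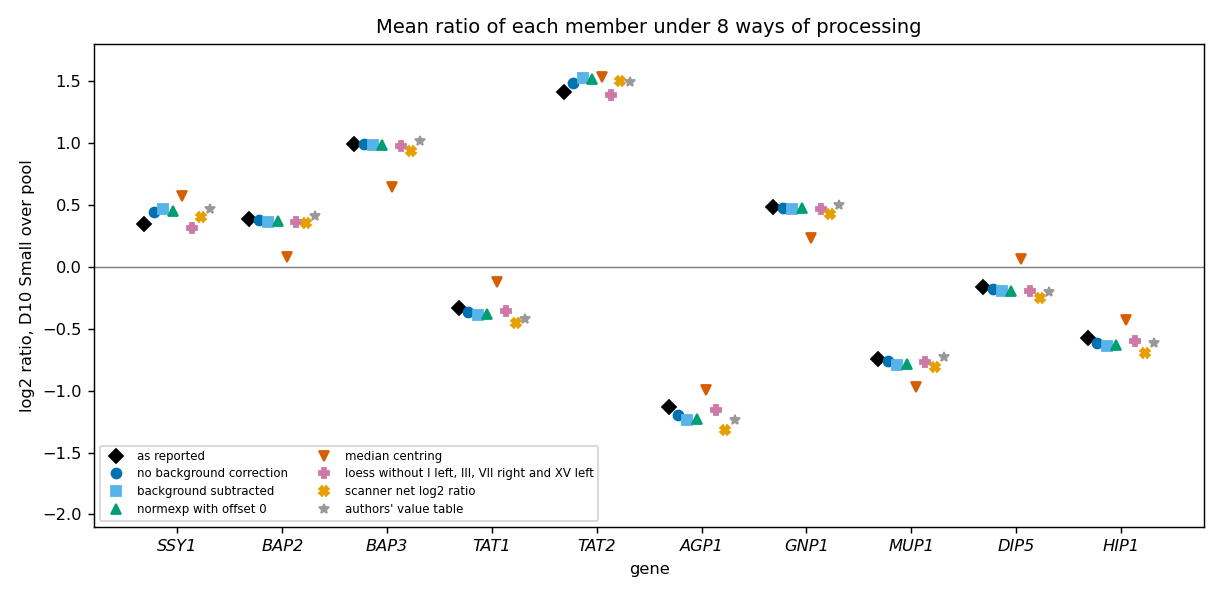
Mean log2 ratio of D10 Small over pool (4 arrays) for each of the 10 genes under 8 ways of processing. The points of a gene lie close together except with median centring (orange triangles pointing down), where BAP2 lies at 0.082, GNP1 at 0.23, BAP3 at 0.65, SSY1 at 0.58, and DIP5 at 0.064.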

How the data were processed

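Amplified RNA (from 250 ng of total RNA) carried Cy3 for D10 Small and Cy5 for the pool, per the labels' protocols. The deposited scanner files give, per the file headers, linear intensity and local background of each spot in either channel and a net log2 ratio. The authors' deposited value table holds log2 ratios whose normalisation is not stated; over genes, r with the ratios computed here was 0.965 to 0.972, in the direction of D10 Small over the pool, with medians between -0.00338 and 0.00547. The scanner and its software are not named in the sources.

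Mean intensities were corrected by normexp (offset 50), normalised by loess within arrays and averaged over spots in limma 3.58.1 (R 4.3.3), with control spots at weight 0 and outlier spots left out (beyond the quartiles of a probe by 1.42 interquartile ranges; 5.88% to 7.93% of gene spots). The offset draws dim ratios toward 0. The files hold no background marks, so background was set at 2.6 SD over the mean net signal of 153 negative controls, and a probe needed most spots beyond that. A gene was tested when above background in a channel on at least 3 arrays. Ratios were tested against 0 with lmFit and eBayes and Benjamini-Hochberg adjustment over 5794 genes at 0.05. Since the pool is a single control sample, its own variation enters no test, and p-values measure only the spread between the 4 arrays, which share 1 slide. The number of arrays limits the precision. Intensities per channel are after loess and Aquantile. Symbols came from the R64 table by systematic name (5756 of 6256 probes). Sequences were not used here.

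Members, lists and tests were chosen with earlier results of these data known. Named are all 10 members, 12 regulators and transporters whatever their value, and up to 3 genes of largest ratio per list that passed with 1 sign on all 4 arrays; others are said to be picked after their values were seen. Procedures were tested on simulated arrays. Alternatives changed the background correction, normalisation, filters, spot summary, test, values and arrays used.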

Additional observations from a re-analysis of the deposited data

Results flagged for a closer look

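For 43 results the 4 array values were searched for a value far from the others by Dixon's criterion, and 6 were found, where chance alone flags about 1 in 20 sets. The sets are not independent, since a member's ratio enters its ratio relative to flanking genes. BAP2 and DIP5 were each flagged in both forms on the same array, so the 6 cannot be set directly against that share. BAP2 had a log2 ratio of 0.57 on replicate 3, above the other arrays, and 0.47 relative to its flanking genes. DIP5 had 0.080 on replicate 4, the array on which its sign changed, and 0.058 relative to its flanking genes. MUP1 had -0.90 on replicate 4, below its other arrays, and HIP1 had -0.42 on replicate 3, above its other arrays.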

How the results depend on the processing

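Over 17 alternatives, the ratios of AGP1, BAP3, TAT2, GNP1, MUP1 and HIP1 kept their direction and their call. With median centring BAP2 (0.082) and TAT1 (-0.12) no longer passed and DIP5 (0.064), STP1 (0.097) and SHR3 (0.049) changed sign; relative to flanking genes BAP2 (-0.086) and DIP5 (0.00055) changed sign and GNP1 (0.020) no longer passed. Members called lower were then 3, SPS genes lower 1 and trafficking genes lower 2, beside 2110 of all 5794 tested genes. Against a 1.2-fold minimum SSY1 (0.35), TAT1 (-0.34) and DIP5 (-0.17) did not pass, nor did BAP2 (0.28) and DIP5 (-0.26) relative to flanking genes. That test left 1425 genes higher and 1153 lower, 3 members lower, 1 SPS gene lower, 6 other permeases higher, 4 vacuolar genes higher and 1 lower, and 3 trafficking genes higher and 1 lower. DIP5 also did not pass with background subtracted (-0.20) or the median over spots (-0.15), and ranged from -0.25 to -0.13 when each replicate was left out in turn.

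HIP1 relative to flanking genes passed as higher without background correction (0.29), with background subtracted (0.43), an offset of 0 (0.40), median centring (0.16) or the scanner's net ratio (0.43), in the authors' deposited table (0.33) and against 5 genes on each side (0.25), was -0.078 against the whole arm, and ranged from 0.047 to 0.12 without each replicate in turn, passing without replicate 4. BAP2 had 0.086 against 5 genes on each side and MUP1 -0.080 with the scanner's net ratio, and neither passed. Trafficking genes called higher were 5 when the loess curve left out chromosome III, XV left, VII right and I left, beside 2389 of 5794 genes. They were likewise 5 in the scanner's net ratio, beside 2250 of 5786 genes. Without each replicate in turn they were 5 to 7, with 5 without replicate 3, beside 2314 to 2457 of 5794 genes. The causes were not tested. At least 2-fold differences over all genes numbered 361 higher and 177 lower, and 538 and 279 without background correction. SSY1 lay nearest to background, at least 2.04 in D10 Small and 1.61 in the pool on the log2 scale above the lowest signal counted as present. No paired analysis was possible because the replicate numbers belong to 1 group and the other channel always holds the same pool.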

Other observations

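Further transporters and regulators were picked after their values were seen. OPT1, an oligopeptide and glutathione transporter, was lower in D10 Small with a log2 ratio of -0.59 ± 0.16 (SD, n = 4), and MMP1, the S-methylmethionine permease, with -0.36 ± 0.08. MMP1 stood at -1.21 from its flanking genes, a larger difference than its own ratio. DAL5, which imports allantoate and dipeptides, was higher with 0.59 ± 0.08. The proline permease PUT4 had 0.54 ± 0.08 but 0.04 relative to its flanking genes, which did not pass. ATG22, a vacuolar exporter of amino acids on III left, was higher with 0.72 ± 0.12 and stood 1.79 above its flanking genes, against the direction of that arm.

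Regulators of the methionine permease's pathway also went in opposite directions. MET4, the activator of sulfur genes, was higher with 0.73 ± 0.09, and MET30, which directs the ubiquitination of Met4, with 0.52 ± 0.06. CBF1, which binds DNA together with Met4, was lower with -0.66 ± 0.17. UBR1, a ubiquitin ligase that controls PTR2 through its repressor, had -0.58 ± 0.08 on VII right and stood at 0.13 from its flanking genes.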
